A study of Homo sapiens with 12 samples.

Results

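In PANC-1 cells given the vehicle DMSO, ribosome footprint (RF) reads were set against total RNA reads gene by gene, to describe which mRNAs carried many or few ribosomes for their abundance before any drug effect. PANC-1 is an established human pancreatic ductal carcinoma cell line. The genes were those with at least 10 RF counts and at least 10 RNA counts summed over the 3 DMSO libraries of each type, which were 11403 of the 20212 protein-coding genes in the count table. A further 6559 genes had under 10 RF counts only, 108 had under 10 RNA counts only, and 2142 were under both minimums. The series held 6 cultures, 3 given DMSO and 3 given rapamycin at 50 nM for 60 min, and each culture gave 1 RF and 1 total RNA library. Rapamycin inhibits the mTORC1 kinase complex. All cultures were of the same line, grown in DMEM with fetal bovine serum and antibiotics, and the labels name no other agent. The rapamycin cultures serve here only as a second set of 3 cultures beside the DMSO ones. Fragments protected from nuclease by ribosomes were isolated by the published ribosome profiling protocol, and the values are of whole cultures, so a ratio shared by all cells and an average over unlike cells cannot be told apart.

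A translating ribosome shields a short piece of mRNA from nuclease, and sequencing these pieces counts ribosomes per gene. The ratio of RF to total RNA is used as a measure of translation efficiency (TE): it is high where each mRNA holds many ribosomes and low where mRNA is stored, retained in the nucleus or poorly initiated. Known classes of regulated mRNA include those with a 5′ terminal oligopyrimidine (TOP) motif, which encode ribosomal proteins and elongation factors and respond to mTORC1, those with upstream reading frames, such as ATF4, and those with an iron-responsive element, such as the ferritins. The ratio sets gene against gene only relative to the typical gene, because RF and RNA libraries have no common unit.

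The RF libraries of DMSO cultures 1, 2 and 3 held 303220, 881106 and 1574723 counts, against 88275828 to 94293744 in the RNA libraries, and the median gene tested had 58 RF counts over the 3 libraries. Levels are given as CPM, counts scaled to a common library size. Where a gene had no RF count, counting error alone leaves room for 3, or 11.4 CPM in culture 1, 4.54 in culture 2 and 2.4 in culture 3. The spread between replicates, as edgeR's biological coefficient of variation, was 61.1% in RF and 3.83% in RNA. RF library 2 stood apart, with a Spearman's rho across genes of 0.679 and 0.70 with the other RF libraries, against 0.794 between those. RNA libraries 1 and 2 listed 16840 and 16858 genes, against 19778 in RNA library 3 and 19751 to 19847 in the rapamycin RNA libraries. RF and RNA counts of the same culture had a rho of 0.602, 0.512 and 0.661. The label was checked on markers: 8 of 10 duct and epithelial genes had a mean RNA FPKM of at least 1, with KRT8, KRT18 and KRT19 the bulk of their summed level of 4723 to 4798, while CFTR was under 1. None of 8 acinar and islet genes reached 1, and of 8 blood, endothelial and fibroblast genes only CD68 did.

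Compared with the typical gene, 2602 genes (22.8% of those tested) had a higher RF over RNA ratio and 1901 (16.7%) a lower one, in edgeR's quasi-likelihood test at a Benjamini-Hochberg adjusted p under 0.05 over all genes. Of these, 2266 were at least 2-fold higher and 1531 at least 2-fold lower. Among genes that passed the count minimum, ratios were wider upward than downward. The 25th and 75th percentiles were -0.83 and 1.05 on the log2 scale around a median of -0.01. The 5th percentile was -1.98 and the 95th 6.35. The minimum limits the low side: 6559 genes were left out for RF counts only and 108 for RNA counts only. With no count minimum the median was -0.30, and 2664 genes were called higher and 2511 lower. RF was above RNA in all libraries for 2997 genes (26.3%) and below in all for 3542 (31.1%).

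The counts of calls depend on where the typical gene is set and on culture 1. With the culture as a block, which pairs the RF and RNA of one culture, 1550 genes were called higher and 1049 lower. Without culture 1 the counts were 935 and 502, and without culture 2 they were 2824 and 2914. Scaling RF and RNA libraries each on their own moved every ratio by -0.64, so that 1899 genes were higher and 4249 lower, and higher calls made up 30.9% of all calls in place of 57.8%. Directions are therefore given relative to the median gene, and the percentages of a list called higher and lower are to be read against the 22.8% and 16.7% of all genes. Where a range of list medians over the alternatives is given, it is relative to the median of all genes under that alternative. Single list medians are as fitted unless stated otherwise. Under separate scaling the medians of the large subunit and mitochondrial ribosomal proteins, proteasome, glycolytic, chaperone, cytoskeleton, histone variant, cell cycle and other initiation factor lists fall below 0, and those of the small subunit (0.01), respiratory chain (0.26), mitochondrially encoded (1.25) and histone lists (1.18) do not.

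**Figure D1:**
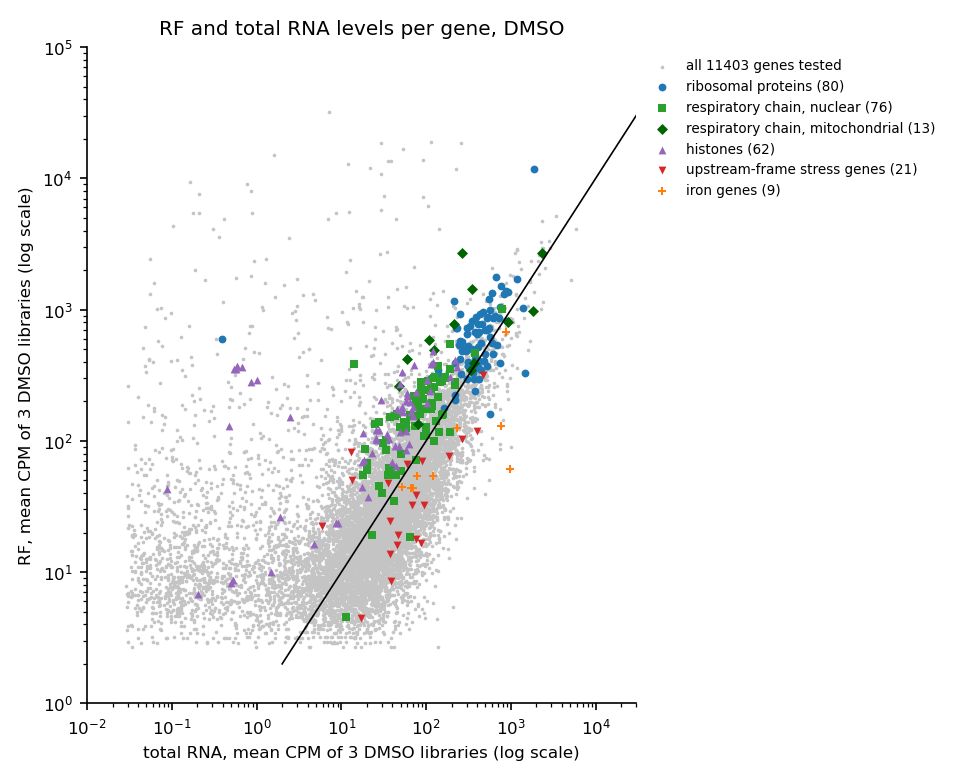
Each point is a gene, placed by its mean total RNA level (x axis, scaled CPM, log scale) and mean RF level (y axis, scaled CPM, log scale) over 3 DMSO libraries each; the black line marks equal CPM. Most coloured respiratory chain and histone genes sit above the line and most stress and iron genes below it, while a band of grey genes with RNA under 1 CPM sits far above it.

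Ribosomal protein genes, the building blocks of the ribosome and the classic TOP mRNAs, mostly lay above the median gene. In the large subunit, 25 of 47 genes were called higher and 5 lower (53.2% and 10.6%), with a median log2 ratio of 0.53, and in the small subunit 21 of 33 were higher and 2 lower (63.6% and 6.06%), with a median of 0.65. The large subunit counts were 24 and 3 with the culture as a block, 14 and 1 without culture 1 and 23 and 3 without culture 3, and the small subunit counts 13 and 1 without culture 1. The medians per culture were 0.64, 0.53 and 0.61 for the large and 0.64, 0.57 and 0.70 for the small subunit, so the 3 cultures lay close together. These genes are short, and when RF was taken per coding length and RNA per exon length of one isoform the medians came to 0.10 and -0.10, against -0.03 for all genes. Over the alternatives the medians ran from 0.13 (RF per coding length) to 0.76 (genes of at least 1 FPKM) for the large and from -0.07 (RF per coding length) to 0.87 (limma voom) for the small subunit.

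Within the family the members differed widely. RPL28 of the large subunit had RF levels of 1162, 1078 and 1264 CPM and RNA levels of 217, 220.0 and 201 CPM in cultures 1, 2 and 3, a log2 ratio of 2.46 ± 0.10 (SE, adjusted p = 1.43e-05), with every RF library above every RNA library. RPLP0, a protein of the ribosomal stalk, was the lowest, with 301, 304 and 380.2 RF CPM and 1440.0, 1465 and 1491 RNA CPM, a ratio of -2.15 ± 0.12 (SE, adjusted p = 4.94e-05). RPL12, which lies at the base of the stalk, was also lower at -1.87 (not called without culture 1). In the small subunit, RPS16 was higher at 2.68 and FAU, a fusion of a ubiquitin-like protein with a ribosomal protein, at 1.90, while RPS2 was lower at -0.93 ± 0.13 (SE, adjusted p = 0.00203). Ribosomal proteins have many near-identical pseudogene copies, and the median share of their coding 30-base windows that occur nowhere else in GRCh37 was 22.1% in the large and 31.9% in the small subunit, so single values are uncertain where only uniquely aligned reads were counted.

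The 5′ ends of TOP mRNAs are shown because the motif is what joins genes of unlike ratios. The first 20 bases of the isoform used, in exon 1, are given 5′ to 3′ from GRCh37 and the GENCODE annotation, with the opening C and its run of pyrimidines in capitals; they lie at chr19:39926570-39926589, minus strand (RPS16), chr12:120638895-120638914, minus strand (RPLP0), chr16:2014808-2014827, minus strand (RPS2), chr19:39109828-39109847, plus strand (EIF3K), chr12:53400240-53400259, plus strand (EIF4B), chr6:74230736-74230755, minus strand (EEF1A1), chr19:3985442-3985461, minus strand (EEF2) and chr13:45915299-45915318, minus strand (TPT1).
RPS16: CCTTTTCCggttgcggcgcc
RPLP0: CCTTCTCTCgccaggcgtcc
RPS2: CTTCTTTTCCgacaaaacac
EIF3K: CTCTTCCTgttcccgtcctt
EIF4B: CTTTTgcgttctctttccct
EEF1A1: CTTTTTCgcaacgggtttgc
EEF2: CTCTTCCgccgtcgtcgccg
TPT1: CTTTTCCgcccgctcccccc
These genes all start with the motif, a C followed by at least 4 pyrimidines (read on the coding strand only), yet their log2 ratios ran from -2.21 for EIF4B to 2.68 for RPS16. The motif stood at the annotated end of 492 of 10808 genes with a 5′ UTR (4.55%), whose median was -0.02, against -0.05 in the rest. Among ribosomal proteins 41 of 78 held it, with a median of 0.33, against 0.74 for those whose annotated start lacks it.

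Elongation factors and other known TOP mRNAs lay on both sides of the median gene: 5 of 19 were called higher and 8 lower (26.3% and 42.1%), with a median of -0.21. That median changed side, from -0.53 (RF per coding length) to 0.63 (genes of at least 90% unique windows), over the alternatives. The 0.63 is over 5 members, whose median in the main fit was already 0.58. The counts called higher and lower among all 19 were 3 and 8 with the culture as a block, 1 and 2 without culture 1 and 3 and 8 without culture 3. EEF1A1, which delivers aminoacyl-tRNA to the ribosome, had 3916, 3499.5 and 4993 RF CPM against 5403, 5925 and 6021 RNA CPM, a ratio of -0.48 ± 0.14 (SE, adjusted p = 0.0317, not called without culture 1); only 1.47% of its coding windows are unique in the genome. EEF2, the translocation factor, was not called at -0.21 ± 0.09 (SE, adjusted p = 0.119). TPT1 was lower at -1.06 ± 0.17 (SE, adjusted p = 0.00411, not called without culture 1), but its value per coding length was 0.996, of opposite sign. PABPC1, the poly(A)-binding protein, was lower at -0.51 ± 0.12 (SE, adjusted p = 0.0132, not called without culture 1). EIF4B, a cofactor of the eIF4A helicase, had the lowest ratio of the list at -2.21 ± 0.15 (SE, adjusted p = 0.000136), with 13.7% of its coding windows unique, and EIF3K the highest at 0.89 ± 0.10 (SE, adjusted p = 0.00107, not called without culture 1).

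Among the other initiation factors 8 of 35 were called higher and 9 lower (22.9% and 25.7%), or 5 and 6 with the culture as a block and 4 and 4 without culture 1, so the share called higher was close to that of all genes. The median of 0.04 ran from -0.12 (at least 100 counts of each type) to 0.57 (RF per coding length over FPKM of at least 1) over the alternatives. The cap-binding protein EIF4E had 41.9, 25.7 and 30.4 RF CPM against 76.3, 76.9 and 84.6 RNA CPM, a ratio of -1.34 ± 0.24 (SE, adjusted p = 0.00541), with 20.3% of its coding windows unique. The scaffold EIF4G1 was lower at -0.82 ± 0.12 (SE, adjusted p = 0.0027, not called without culture 1), and its relatives EIF4G2 and EIF4G3 were at -1.07 and -1.57. EIF4EBP2, an inhibitor of EIF4E, was at -2.34 ± 0.25 (SE, adjusted p = 0.000742) over RNA counts and at 0.95 per coding length. The helicase EIF4A1 at -0.47 ± 0.38 (SE, adjusted p = 0.368) and the inhibitor EIF4EBP1 at -0.26 ± 0.54 (SE, adjusted p = 0.735), from 3, 0 and 29 RF counts, were not called. EIF1, which guards start-codon choice, was higher at 1.81 and the ribosome-joining factor EIF5B at 1.99, while EIF1AX, which binds the small subunit beside EIF1, was lower at -1.08 (not called without culture 1 or with the block). EIF2D, which can deliver the initiator tRNA, was the lowest at -2.44 ± 0.70 (SE, adjusted p = 0.0321, not called without culture 1 or with the block). The highest were EIF5 at 6.18 ± 0.78 (SE, adjusted p = 0.0015) and EIF3C at 4.97. Both values are uncertain, that of EIF3C for its near-identical neighbour EIF3CL, and that of EIF5 because its RF counts nearly equal those of SVIL and DCAF11 in every library.

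Nuclear-encoded subunits of the respiratory chain, which make ATP by oxidative phosphorylation, mostly lay above the median gene: 45 of 76 were called higher and 2 lower (59.2% and 2.63%), with a median of 0.90. The counts were 38 and 1 with the culture as a block, 28 and 1 without culture 1 and 37 and 1 without culture 3. The median stayed at 0.82 per coding length, and was 1.13 over the 47 members with at least 90% unique coding windows. Raised members came from complex I, such as NDUFA2 at 1.81 and NDUFS6 at 1.79, complex II, where SDHC was at 2.12 (not called without culture 1 or 3), complex III, such as UQCRB at 1.10, complex IV, such as COX5B at 1.69 and COX4I1 at 1.31, and the ATP synthase, such as ATP5D, with 149, 126 and 131 RF CPM against 26.8, 22.5 and 24.6 RNA CPM and a ratio of 2.45 ± 0.18 (SE, adjusted p = 0.000159). NDUFA7 stood above the rest at 4.81 ± 0.30 (SE, adjusted p = 8.63e-05). The membrane anchor SDHD was the lowest at -1.81 ± 0.24 (SE, adjusted p = 0.00158), beside NDUFS1 at -0.68 (not called without culture 1 or 3 or with the block); SDHD has 17.5% unique coding windows. The catalytic subunits SDHA at -0.32 and NDUFV1 at -0.33 were not called.

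Mitochondrial ribosomal proteins, which translate the mitochondrial genome, had a median of 0.55, with 14 of 74 called higher and 2 lower (18.9% and 2.7%), so fewer were called in either direction than of all genes. Over the alternatives the median ran from 0.33 (at least 100 counts of each type, 48 members) to 0.94 (RF per coding length over FPKM of at least 1). These counts were 3 and 0 with the culture as a block, 3 and 0 without culture 1, 29 and 4 without culture 2 and 14 and 1 without culture 3. MRPL22 was highest at 1.92 ± 0.63 (SE, adjusted p = 0.0495, not called without culture 1 or 3 or with the block), with 118, 15.1 and 108 RF CPM, so culture 2 lay below the other two. MRPL46 was lowest at -1.13 ± 0.76 (SE, adjusted p = 0.279) and was not called.

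The 13 proteins encoded in mitochondrial DNA differed by gene, with 8 called higher, 1 lower (61.5% and 7.69%) and a median of 1.89. Per coding length the median was 0.81, with 7 called higher and 5 lower, MT-CO1, MT-ND1 and MT-ND4 among the latter. MT-ND5, a complex I subunit, had 2743, 2973 and 2365 RF CPM against 239, 269 and 289.8 RNA CPM, a ratio of 3.34 ± 0.13 (SE, adjusted p = 1.24e-05). MT-CO3, a subunit of cytochrome c oxidase, had 907, 1187 and 848 RF CPM against 1667, 1994 and 1869 RNA CPM, a ratio of -0.91 ± 0.15 (SE, adjusted p = 0.00407, not called without culture 1). RF lay above RNA in all libraries for MT-ND5 and below in all for MT-CO3. MT-CO1, MT-CO2, MT-ND1 and MT-ND4 were not called, at 0.23, -0.18, 0.05 and 0.13. MT-ATP6 and MT-ATP8 overlap in the genome, as do MT-ND4L and MT-ND4, and MT-ND6 lies antisense to the other genes, so their counts are uncertain where strand was not stated. The median share of unique coding windows was 65.7%, and 2 of the 13 genes had at least 90%. Single values are therefore uncertain here too, where only uniquely aligned reads were counted.

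Replication-dependent histone genes, which package newly made DNA and whose mRNAs end in a stem-loop and lack a poly(A) tail, lay above the median gene: 59 of 62 were called higher and 0 lower (95.2% and 0%), with a median of 1.82. Without culture 1 36 were higher and 0 lower. HIST1H4C, a histone H4 gene with 100% unique coding windows, had 404, 407 and 340.2 RF CPM against 115, 113 and 114 RNA CPM, a ratio of 1.75 ± 0.12 (SE, adjusted p = 0.000109). The linker histone HIST1H1C was at 0.92. The lowest member, HIST1H2BN, was not called at 0.54 ± 0.19 (SE, adjusted p = 0.06). The highest, HIST2H3C at 9.37, has 0% unique windows and 78, 52 and 55 RNA counts, so identical copies make its value uncertain. The coding length measure is void for the list, since only 30 of its 62 genes matched a coding isoform. How RNA was selected for the total RNA libraries is not given in the sources used here; its part in the ratios of these mRNAs, which lack a poly(A) tail, was not tested.

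Polyadenylated histone variants, made through the whole cell cycle, were mixed, with 4 of 12 called higher and 2 lower (33.3% and 16.7%), or 2 and 1 with the culture as a block, 2 and 0 without culture 1 and 2 and 1 without culture 3. Their median of 0.55 ran from 0.14 (at least 100 counts of each type, 8 members) to 1.26 (RF per coding length over FPKM of at least 1) over the alternatives. H2AFX, the variant phosphorylated at DNA breaks, was higher at 1.46 ± 0.16 (SE, adjusted p = 0.000771) and H3F3B, which encodes histone H3.3, lower at -0.53 ± 0.10 (SE, adjusted p = 0.00691, not called without culture 1). H2AFY was the lowest at -0.55 ± 0.18 (SE, adjusted p = 0.047, not called without culture 1 or 3 or with the block). H3F3C, a near copy of the H3.3 genes, was the highest at 8.45, with 28, 73 and 137 RF counts and 34, 26 and 46 RNA counts.

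**Figure D2:**
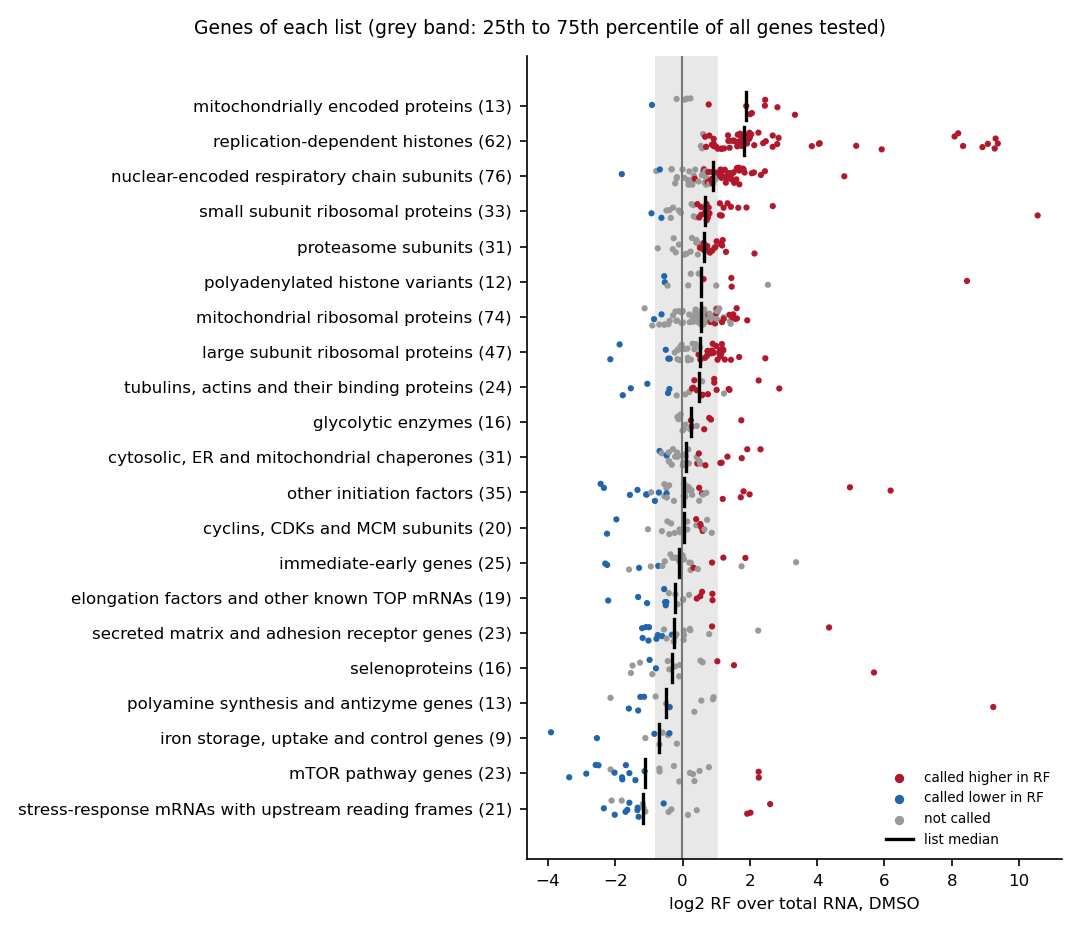
Each point is a gene of one list (y axis, number tested in brackets), placed by its fitted log2 RF over total RNA in DMSO (x axis) and coloured by its call. The black bar is the list median and the grey band the 25th to 75th percentile of all genes tested; medians run from -1.18 for stress-response mRNAs with upstream reading frames to 1.89 for mitochondrially encoded proteins, and lists with a median between 0 and 0.64 would fall below 0 with RF and RNA scaled separately.

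Of the proteasome subunits, which degrade ubiquitin-tagged proteins, 18 of 31 were called higher and 0 lower (58.1% and 0%), with a median of 0.63 that came to -0.03 per coding length; the counts were 8 and 0 without culture 1 and 11 and 1 without culture 3. PSMC5, an ATPase of its base, was the highest at 2.14 ± 0.14 (SE, adjusted p = 8.36e-05) and PSMC1, another, the lowest at -0.74 ± 0.49 (SE, adjusted p = 0.271), not called and with 0% unique windows. Of the glycolytic enzymes 6 of 16 were higher and 0 lower (37.5% and 0%), or 3 and 0 with the culture as a block and 2 and 0 without culture 1. Their median of 0.24 turned to -0.33 per coding length, with 2 called higher and 5 lower. ENO2 was the highest at 1.74 ± 0.34 (SE, adjusted p = 0.00738, not called without culture 1 or with the block), followed by LDHA at 0.84, which makes lactate, while TPI1 at -0.15 was not called. GAPDH had 2491, 2737 and 2568 RF CPM against 2024, 2210.3 and 2192 RNA CPM, a ratio of 0.28 ± 0.08 (SE, adjusted p = 0.0301, not called without culture 1 or 3 or with the block).

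Tubulins, actins and their binding proteins lay on both sides of the median gene: 14 of 24 were called higher and 5 lower (58.3% and 20.8%), or 8 and 3 with the culture as a block, 6 and 3 without culture 1 and 9 and 3 without culture 3. Over the alternatives the list median changed side, from -0.34 (genes of at least 90% unique windows) to 0.72 (genes of at least 1 FPKM). The -0.34 is over 7 members, whose median in the main fit was already -0.39. ACTB had 4511, 5186 and 4383 RF CPM against 2292, 2320.4 and 2375 RNA CPM, a ratio of 1.01 ± 0.09 (SE, adjusted p = 0.000306), and the tubulin TUBA1A was the highest at 2.87. FLNA, a large actin cross-linker, was lower at -1.54, as was the tropomyosin TPM3 at -1.05. The intermediate filament VIM was higher at 0.58 ± 0.07 (SE, adjusted p = 0.00106, not called without culture 1), but at -0.08 per coding length, and the keratins KRT8 and KRT18 were not called, at 0.03 and -0.05. Of the duct and epithelial markers 3 of 8 were called higher and 0 lower, or 1 and 0 with the culture as a block and 0 and 0 without culture 1; MUC1 was the highest at 2.29 ± 0.61 (SE, adjusted p = 0.0245, not called without culture 1 or 2 or with the block) from 2, 18 and 10 RF counts. Of the mesenchymal markers VIM alone was called, and ZEB1 was lowest at -0.79 ± 0.27 (SE, adjusted p = 0.0569). CD68 was at 0.61 ± 0.18 (SE, adjusted p = 0.0365, not called without culture 1 or 3 or with the block), and PNLIP, with 15, 0 and 0 RF counts, was not called.

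Chaperones had a median of 0.10, with 9 of 31 higher and 2 lower (29% and 6.45%); these counts were 7 and 0 without culture 1, 10 and 5 without culture 2 and 7 and 1 without culture 3. The median ran from -0.27 (RF per coding length) to 0.33 (RF per coding length over FPKM of at least 1) over the alternatives. The ER chaperone HSPA5 (BiP) had 891, 709.9 and 1010.2 RF CPM against 234, 225 and 231 RNA CPM, a ratio of 1.92 ± 0.14 (SE, adjusted p = 0.000174). The small heat shock protein HSPB1 was the highest at 2.32 ± 0.15 (SE, adjusted p = 9.34e-05), and HSP90AA1 was at 1.12. The lectin chaperone CANX was the lowest at -0.68 ± 0.13 (SE, adjusted p = 0.00798, not called without culture 1), beside HSP90B1 at -0.47 (not called without culture 1 or 3).

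Stress-response mRNAs known to carry upstream reading frames lay mostly below the median gene. Of 21 tested, 9 were called lower and 3 higher (42.9% and 14.3%), with a median of -1.18; without culture 1 3 were lower and 0 higher. The size of the median depended on the measure: relative to all genes it ran from -1.33 (culture 3 left out) to -0.24 (RF per coding length over FPKM of at least 1), and it was -0.67 with at least 100 counts of each type, which 8 members reached. PPP1R15A (GADD34), the phosphatase subunit that reverses eIF2 phosphorylation, had 15.2, 16.6 and 18.4 RF CPM, from 4, 11 and 23 counts, against 82.6, 89.5 and 89.5 RNA CPM, a ratio of -2.34 ± 0.22 (SE, adjusted p = 0.000418). Every RF library lay below every RNA library. ATF4, the transcription factor of the integrated stress response, had 80, 109 and 40.8 RF CPM against 179.9, 186 and 185 RNA CPM, a ratio of -1.31 ± 0.34 (SE, adjusted p = 0.022, not called without culture 1), with culture 3 the lowest in RF and no overlap with RNA. SLC7A11, the cystine transporter, was lower at -2.02 and MDM2, a ubiquitin ligase, at -1.58 (not called without culture 1). ATF5 was not called at 0.42 ± 0.24 (SE, adjusted p = 0.198). Members with a higher ratio were CEBPB at 1.92 (not called without culture 1 or 3), the uncoupling protein UCP2 at 2.02 (not called without culture 1 or with the block) and the secretase BACE1 at 2.60 ± 0.35 (SE, adjusted p = 0.00195, not called without culture 1), so the list did not move one way.

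Polyamine genes had 5 of 13 lower and 1 higher, with a median of -0.49 that ran from -1.23 (culture 3 left out) to -0.32 (the culture as a block) over the alternatives; the counts higher and lower were 1 and 2 without culture 1 and 2 and 5 without culture 3. ODC1, the first enzyme of polyamine synthesis, had 126, 114 and 217 RF CPM against 341, 343 and 351 RNA CPM, a ratio of -1.14 ± 0.24 (SE, adjusted p = 0.0114, not called without culture 1). AZIN1, the antizyme inhibitor that protects ODC1, was lower at -1.26 ± 0.11 (SE, adjusted p = 0.000323), and OAZ1, the antizyme that targets ODC1 for degradation, at -0.38 ± 0.11 (SE, adjusted p = 0.0273, not called without culture 1 or 3 or with the block). SAT1, which acetylates polyamines for export, was at -1.60, and spermine synthase SMS at -1.32 (not called without culture 1). SMOX was the lowest at -2.14 ± 0.71 (SE, adjusted p = 0.0523), not called. ADC was the one gene with a higher ratio, 9.23, from 144, 271 and 374 RF counts and 81, 75 and 80 RNA counts. Its RF counts nearly equal those of RCOR2 on another chromosome, 143, 262 and 371, so its value is uncertain.

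Iron genes included both ferritin chains, which store iron and had far fewer RF than RNA reads. In the iron list 4 of 9 genes were called lower and 0 higher, or 0 and 2 without culture 1 as higher and lower, and the median of -0.69 ran from -1.09 (RF per coding length) to -0.42 (genes of at least 1 FPKM) over the alternatives. The 5′ UTR windows of 30 bases around CAGTG, the loop letters of the iron-responsive element that iron regulatory proteins bind, are shown from GRCh37 with CAGTG in capitals; they lie in exon 1 at chr19:49468592-49468621, plus strand (FTL) and chr11:61735045-61735074, minus strand (FTH1).
FTL: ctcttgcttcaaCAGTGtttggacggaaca
FTH1: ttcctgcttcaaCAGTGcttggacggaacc
CAGTG, searched on the coding strand of the whole 5′ UTR, occurred in 18.1% of the genes with a 5′ UTR, and their median log2 ratio was -0.15, against -0.02 without it. FTL, the ferritin light chain, had 41.9, 69.6 and 72.8 RF CPM, from 11, 46 and 91 counts, against 949, 974 and 998 RNA CPM, a ratio of -3.91 ± 0.18 (SE, adjusted p = 2.56e-05), or 15.1-fold fewer. FTH1, the heavy chain, had 110.5, 124 and 154 RF CPM against 816, 732 and 772 RNA CPM, a ratio of -2.55 ± 0.14 (SE, adjusted p = 5.53e-05). In both genes each RF library lay far below each RNA library; 41.3% and 9.75% of their coding windows are unique. NCOA4, the receptor that sends ferritin to autophagy, was lower at -0.84 (not called without culture 1). TFRC, the transferrin receptor, whose element lies in the 3′ UTR, was at -0.39 ± 0.09 (SE, adjusted p = 0.0169, not called without culture 1 or 3 or with the block).

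Selenoproteins, made by reading a UGA codon as selenocysteine, had 3 of 16 higher and 2 lower (18.8% and 12.5%), or 2 and 1 with the culture as a block, 2 and 1 without culture 1 and 3 and 4 without culture 2. Their median changed side, from -0.62 (at least 100 counts of each type, 5 members) to 0.59 (RF per coding length over FPKM of at least 1), over the alternatives. GPX4, which reduces lipid peroxides and whose gene lies at chr19:1103981-1106790 in GRCh37, had 13657, 7521 and 13967 RF CPM against 227, 217 and 238 RNA CPM, a ratio of 5.69 ± 0.28 (SE, adjusted p = 3.21e-05), with every RF library above every RNA library. GPX1, its cytosolic relative, was not called at -0.08 ± 0.30 (SE, adjusted p = 0.851). TXNRD1, a thioredoxin reductase, was lower at -0.79, and SELO was the lowest at -1.54 ± 0.58 (SE, adjusted p = 0.0765), not called.

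**Figure D3:**
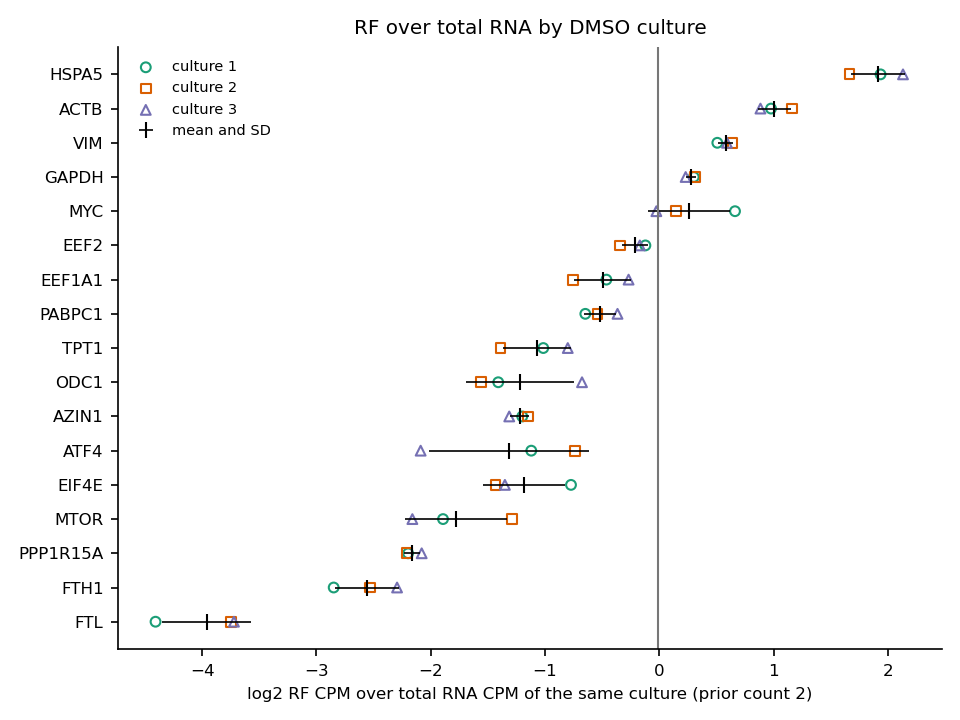
For 17 genes the log2 ratio of RF CPM to total RNA CPM of the same culture (x axis, prior count of 2) is shown for cultures 1, 2 and 3, with the mean and SD. FTL and FTH1 lie lowest of the genes drawn, the 3 cultures of HSPA5 and ACTB all lie above the median gene (grey line), and ATF4 and MTOR spread widely between cultures.

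Genes of the mTOR pathway, which couples nutrients to protein synthesis, had 11 of 23 called lower and 2 higher (47.8% and 8.7%), with 7 members above 0 and a median of -1.13; without culture 1 5 were lower. Relative to all genes the median ran from -1.46 (culture 3 left out) to -0.61 (at least 100 counts of each type) over the alternatives, the latter over 8 members. MTOR, the kinase itself, had 64.8, 99.9 and 52.8 RF CPM against 251, 251 and 249 RNA CPM, a ratio of -1.79 ± 0.24 (SE, adjusted p = 0.00185, not called without culture 1). RICTOR, of complex 2, was at -2.58, the GTPase RHEB at -1.40, and the kinases AKT1 and AKT2 at -2.02 (not called without culture 1 or 3) and -1.69. The partners of the TSC complex, which restrains RHEB, lay apart: TSC1 had 0, 2 and 9 RF counts against 5715, 5750 and 5348 RNA counts, a ratio of -3.37 ± 0.51 (SE, adjusted p = 0.00314), while TSC2 had 128, 156 and 314 against 7551, 7917 and 7291, a ratio of 2.26 ± 0.29 (SE, adjusted p = 0.00154). No RF library of TSC1 exceeded one of TSC2. RPS6KB1, the S6 kinase, was not called at -0.69 ± 0.47 (SE, adjusted p = 0.283), with 19, 48.4 and 13.6 RF CPM and culture 2 the highest.

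Cell cycle genes centred on the median gene, with 4 of 20 higher and 2 lower (20% and 10%), or 0 and 1 with the culture as a block, 1 and 1 without culture 1, 4 and 5 without culture 2 and 0 and 1 without culture 3. CDK6 was the lowest at -2.25 ± 0.18 (SE, adjusted p = 0.000206), though at 0.24 per coding length, and CDK1 was higher at 0.59 (not called without culture 1 or 3 or with the block). CCNE1 was the highest at 0.87 ± 0.42 (SE, adjusted p = 0.142), not called. Immediate-early genes had 4 of 25 higher and 4 lower (16% and 16%), or 2 and 2 without culture 1 and 5 and 7 without culture 2. The medians changed side in both lists over the alternatives, from -0.19 (at least 100 counts of each type) to 0.49 (RF per coding length over FPKM of at least 1) for the cell cycle and from -0.09 (the main measure) to 0.73 (RF per coding length over FPKM of at least 1) for immediate-early genes. CYR61, a matricellular protein, was higher at 1.87 ± 0.09 (SE, adjusted p = 2.58e-05) and JUNB at 1.21 (not called without culture 1), while the transcription factor SRF was the lowest at -2.30 ± 0.25 (SE, adjusted p = 0.00078). EGR3 was the highest, 3.37 ± 1.29 (SE, adjusted p = 0.0785), from 3, 112 and 1 RF counts, and was not called. Matrix and adhesion receptor genes had 9 of 23 lower and 2 higher, with a median of -0.26 that ran from -0.70 (at least 100 counts of each type) to -0.09 (genes of at least 1 FPKM); the counts higher and lower were 2 and 4 without culture 1 and 4 and 6 without culture 3. Integrin chains made up most of the lower calls, with ITGA5 the lowest at -1.20 ± 0.19 (SE, adjusted p = 0.00335). CD44, the hyaluronan receptor, was higher at 0.88 and COL5A1, a fibrillar collagen chain, the highest at 4.35. Genes with a ZNF symbol, mostly zinc finger repressors, had 43 of 283 higher and 55 lower (15.2% and 19.4%), or 22 and 24 with the culture as a block and 15 and 13 without culture 1. They ran from -4.37 for ZNF664 to 11.51 for ZNF385B. Their median ran from -0.66 (RF per coding length over FPKM) to 0.66 (at least 100 counts of each type). The latter is over 28 genes. RF libraries were far smaller than RNA libraries, so that minimum favours members with a high ratio.

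SMAD4 and CDKN2A, tumour suppressors often altered in pancreatic cancer, had few RF counts. SMAD4, with 8, 15 and 52, was lower at -0.85 ± 0.28 (SE, adjusted p = 0.0485, not called without culture 1 or 2 or with the block), though at 0.47 per coding length. CDKN2A was higher at 9.65 ± 1.59 (SE, adjusted p = 0.00423, not called without culture 1), from 46, 21 and 61 RF counts, and its RNA counts of 1, 0 and 31 came almost all from the library that listed more genes. MYC was not called at 0.20 ± 0.19 (SE, adjusted p = 0.444), with 129.5, 93.8 and 85.6 RF CPM against 83.6, 87.4 and 90 RNA CPM.

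The lowest ratios of all, among genes with at least 1000 RNA counts and RF below RNA in every library, belonged to SRSF2, RYK, ARHGAP21, ZNF664, CCNL2, PCNX, ST6GALNAC2 and PPP1R12C, from -5.03 to -4.13. SRSF2, an SR splicing factor, had 0, 7 and 7 RF counts against 24186, 24557 and 23456 RNA counts, a ratio of -5.03 ± 0.39 (SE, adjusted p = 0.000218). Of the other SR genes, SRSF1 was at -1.01 (not called without culture 1), and SRSF3 and SRSF7, at -0.38 and 0.11, were not called. Per coding length SRSF1 and SRSF3 lay above the median gene. These 3 were looked up after SRSF2 was seen, as were further SR genes whose values are not given here. CCNL2, a cyclin tied to splicing, had 11, 3 and 9 RF counts against 26743, 25858 and 24545 RNA counts, so culture 1 lay above the others in RF CPM. RYK, a Wnt co-receptor, had 0, 0 and 10 RF counts. RF counts of 0 allow 11.4 CPM in culture 1, so the size of ratios this low is uncertain. The calls of RYK and PPP1R12C were lost without culture 1, and that of ST6GALNAC2 without culture 3.

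At the other end, 1151 genes had a ratio of at least 16-fold, and they held 33.5%, 41% and 36.6% of RF counts but 0.367%, 0.364% and 0.391% of RNA counts. Most had little RNA: 938 of the 1062 with an FPKM were under 1. Of all 1365 tested genes under 1, 1047 (76.7%) were called higher. RF libraries were far smaller than RNA libraries, so genes with this little RNA passed the RF count minimum mostly where their ratio was high. The 76.7% therefore depends on the minimum and does not describe genes of low RNA as a whole. Among genes of at least 1 FPKM, 14.3% were called higher and 19.3% lower. The 8 highest by the naming rule were AKAP3, MTRNR2L11, HOXD1, PHACTR1, MTRNR2L4, STAB1, SLC22A2 and INSM1, from 14.55 to 15.79; with so few RNA counts the size of these ratios is uncertain. HOXD1, a homeobox factor, had 1130, 2441 and 6172 RF counts against 9, 11 and 15 RNA counts. INSM1 had 0, 0 and 18 RNA counts and SLC22A2 0, 0 and 20, all from culture 3. RNA libraries 1 and 2 listed fewer genes than the other RNA libraries. In all, 156 tested genes had 0 RNA counts in cultures 1 and 2. Of these, 107 were called higher, where 22.8% of all tested genes were. The calls of STAB1 and AKAP3 were lost without culture 2, and STAB1 had RF counts nearly equal to those of BDH1 and AKNA.

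The genes with the most RF reads were in this group too. MTRNR2L8, a nuclear copy of a mitochondrial ribosomal RNA stretch, had 8932, 18952 and 41607 RF counts against 786, 924 and 754 RNA counts. All 12 tested MTRNR2L genes were called higher, and the family held 6.89%, 5.95% and 6.02% of RF counts. COPE, a coatomer subunit, had 4324, 8405 and 26542 RF counts, a ratio of 8.29 ± 0.24 (SE, adjusted p = 3.42e-06). SVIL, an actin-binding protein, DCAF11, a ubiquitin ligase adaptor, and EIF5, the GTPase activator of eIF2, had nearly equal RF counts of 1912, 26633 and 10825, of 1886, 26371 and 10757 and of 1931, 26458 and 10890, although their RNA counts in culture 1 were 13375, 3335 and 31155. Such matches, looked for after the data were seen, were not single: among 166 genes of at least 16-fold with at least 50 RF counts in each library, 22 pairs agreed within 5% in all 3, and 19 of those within 10% in all 3 rapamycin RF libraries, forming 13 sets of 29 genes. One set was STAB1, BDH1 and AKNA, with 12651, 12643 and 12630 RF counts in culture 3. Whether the members of a set count the same reads was not tested.

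The share of all counts held by a list weights its abundant members. Histones took 0.899, 0.81 and 0.897% of RF counts and 0.374, 0.364 and 0.369% of RNA counts in cultures 1, 2 and 3. Iron genes took 0.0933, 0.0993 and 0.103% and 0.414, 0.405 and 0.408%, mTOR pathway genes 0.148, 0.125 and 0.132% and 0.433, 0.438 and 0.429%, and stress-response genes 0.104, 0.0829 and 0.098% and 0.274, 0.265 and 0.268%. Large subunit ribosomal proteins took 2.54, 2.2 and 2.47% and 2.58, 2.64 and 2.64%, so their RF share lay below their RNA share. Shares are of library totals, while the ratios are scaled by TMM, so the 2 are not on one scale. With library totals the median log2 ratio of this list was -0.11, against -0.67 for all genes. Selenoproteins took 1.29, 0.65 and 1.19% and 0.239, 0.237 and 0.239%, mostly through GPX4. RF and RNA shares did not overlap for 22 of 26 lists, each with p = 0.1 in a two-sided exact permutation test, the smallest p that 3 against 3 libraries can give, and 0.118 after Benjamini-Hochberg adjustment over the lists.

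Across genes, the ratio fell with transcript length. In 4 equal groups of coding length from short to long, the median log2 ratios were 0.38, 0.05, -0.19 and -0.51 over 10985 genes, with a Spearman's rho of -0.20. Per coding length it went from 0.80 to -0.94; that measure divides by coding length, so part of this fall is built in. For 3′ UTR length the medians went from 0.39 to -0.49, but per coding length from -0.24 to 0.43. The second measure multiplies by exon length, which holds the 3′ UTR, so a rise with it is built in as well. The first sets RF, which comes mainly from coding sequence, against RNA reads of all exons, the 3′ UTR included. Part of its fall may therefore be built in too, which was not tested. Genes richer in GC in the coding sequence had higher ratios by both measures, from -0.33 to 0.38 and from -0.32 to 0.29. Genes are not independent replicates, and length, GC and RNA level vary together, so no p is given.

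**Figure D4:**
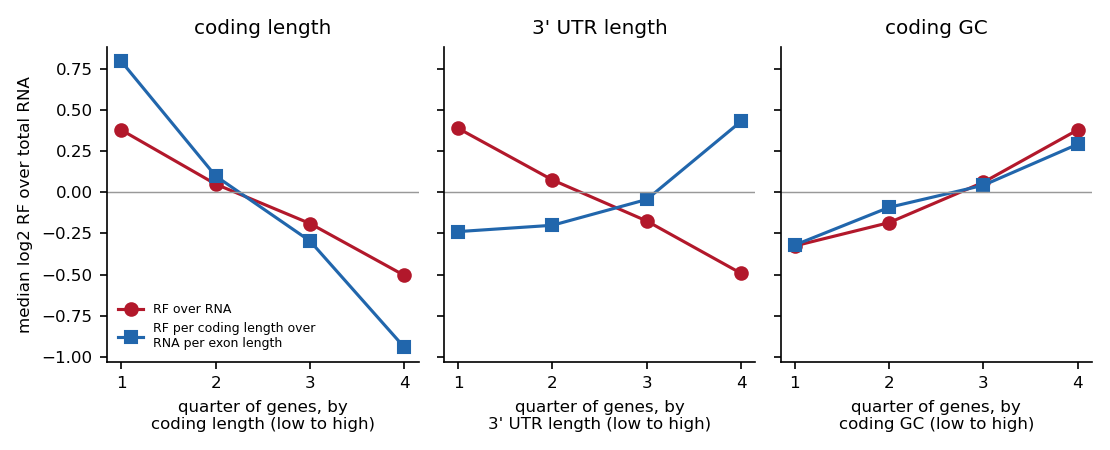
Median log2 RF over total RNA in DMSO (y axis) in 4 equal groups of genes ordered by coding length, 3′ UTR length and coding GC (x axis, low to high). Red points use counts as deposited, with RNA counted over all exons, and blue points RF per coding length over RNA per exon length. Both fall with coding length and rise with GC. They cross for 3′ UTR length, where the blue measure contains the lengths themselves and the red one sets RF against RNA reads that include the 3′ UTR.

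Upstream start codons went with lower ratios among genes of at least 1 FPKM. Those with no ATG in the 5′ UTR had a median of -0.05 (5656 genes), those with 1 -0.44, those with 2 or 3 -0.62 and those with 4 or more -0.73 (744 genes), and lower calls rose from 14.4% to 29.6%. Per coding length, a measure that itself grows with UTR length, the medians went from -0.09 to -0.61. Over all genes tested the order was not kept, at 0.08, -0.20, -0.40 and -0.28. Among genes of at least 1 FPKM the ratio also fell with 5′ UTR length. In 4 equal groups from short to long the medians were 0.006, -0.12, -0.31 and -0.51. Spearman's rho was -0.16 for 5′ UTR length, -0.38 for exon length and -0.21 for the number of upstream ATGs. Per coding length these were -0.04, -0.15 and -0.14. Whether upstream ATGs went with lower ratios at equal length was not tested. A strong start context, a purine 3 bases before the ATG and a G just after it, made little difference. Genes with it had a median of -0.06, against -0.03 without it, over all genes tested. Among genes of at least 1 FPKM the order was the other way, at -0.20 against -0.27.

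In the 3 rapamycin cultures, which shared no library with the DMSO ones, the same genes gave ratios with a Spearman's rho of 0.81 across genes. Of the genes higher in DMSO, 2199 (84.5%) were also called higher there, where 27.2% of all genes were. Of the genes lower in DMSO, 1578 (83%) were also called lower, where 28.7% of all genes were. List medians in DMSO and rapamycin were 1.82 and 1.87 for histones, 0.90 and 0.96 for the respiratory chain, -1.18 and -0.67 for stress-response genes, and -1.13 and -0.90 for mTOR pathway genes. FTL was at -3.91 and -4.42, FTH1 at -2.55 and -2.56, and GPX4 at 5.69 and 6.05. Of the genes tested in DMSO, 60 had 0 RF counts in every rapamycin library, so their fitted ratio there has no lower bound; these had a median of 14 RF counts over the DMSO libraries. The difference between treatments was not tested.

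**Figure D5:**
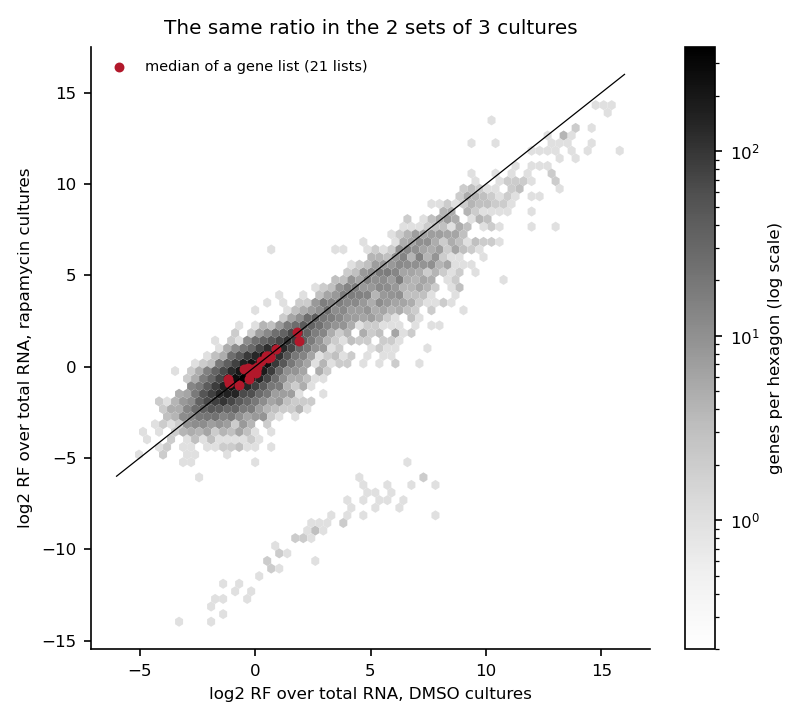
Log2 RF over total RNA of each gene in the DMSO cultures (x axis) and in the rapamycin cultures (y axis), with darker hexagons holding more genes (log scale), list medians in red and the line of equal values. Most genes lie along the line; 60 genes with 0 RF counts in every rapamycin library lie far below it.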

How the data were processed

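RF and total RNA were measured in 3 DMSO cultures of PANC-1. The authors deposited raw counts: RF reads were quality-filtered, linker-trimmed, cleared of ribosomal RNA and aligned, as were paired-end RNA reads, to GRCh37 with HISAT2, and uniquely aligned exonic reads were counted with featureCounts. They also deposited isoform and gene FPKM (Cufflinks 2.2.1, per the submitters' processing notes), used here to choose 1 complete coding isoform per gene, and their own ratios and p-values, which were not used. 29 gene names rewritten by a spreadsheet were restored.

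Counts were scaled by TMM over all 6 libraries and tested with edgeR 4.0.16 (quasi-likelihood, robust) in R 4.3.3; limma 3.58.1 and DESeq2 1.42.0 served as alternatives, and Python 3.11 with scipy 1.17.1 for shares. CPM use these scaled sizes. Intervals for a count of 0 cover counting error only. SE is the fitted log2 value over the square root of the F statistic. The coding length measure divides RF by coding and RNA by exon length of that isoform, from the GENCODE v44lift37 annotation, which may differ from the one the authors used. The test was checked on simulated data. Alternatives were other scalings, count minimums, tests and a culture block, and leaving out each culture. RF and RNA of one number come from one culture by the design (RF and RNA were taken from the same 6 samples), and their deviations from the group means correlated at 0.0197, -0.074 and -0.0876. The cultures are called biological replicates in the design.

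Genes named were the 8 highest and 8 lowest called ratios whose RF and RNA did not overlap (at least 100 RF, or 1000 RNA counts), the 5 with most RF CPM, the extremes of each list, and a set of known translation and cancer genes. Others are examples chosen with their values in view. Members and lists were chosen with earlier results of these data known. AMD1 was not analysed here, and a few single-gene results that this rule would name are not reported here.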

Additional observations from a re-analysis of the deposited data

How the results depend on the processing

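Genes higher and lower numbered 2602 and 1901. They numbered 1550 and 1049 with the culture as a block, 1040 and 908 with at least 100 counts of each type (3731 genes tested), and 1548 and 574 when tested against a 2-fold difference. TMM within each library type gave 1899 and 4249, and library totals 1864 and 4174. Leaving out 1 culture gave 935 to 2824 higher and 502 to 2914 lower; the cause was not tested. Under DESeq2 size factors, DESeq2's Wald test, limma voom, no count minimum and the coding length measure both counts stayed within 1.5 times. The same held for genes of at least 90% unique coding windows or of at least 1 FPKM, chosen after seeing the data. Which genes were called changed more than these totals. Per coding length, over 10985 genes, 2003 of the higher and 1385 of the lower calls were kept. There 16 higher calls turned lower and 41 lower calls turned higher. With limma voom 2288 higher and 1166 lower calls were kept. Relative to the median gene, these genes of the naming rule changed side: with no count minimum, TPI1 (0.00865), KRT18 (0.112) and GPX1 (0.090), with genes of at least 1 FPKM only, TPI1 (0.0772), KRT18 (0.179), EEF2 (0.0156) and GPX1 (0.152), with limma voom, TPI1 (0.0672), KRT18 (0.143) and GPX1 (0.148), per coding length, CDK6 (0.269), VIM (-0.0552), RPS6KB1 (0.0427), SMAD4 (0.504), MYC (-0.188), GAPDH (-0.452) and TPT1 (1.03), with the culture as a block, KRT18 (0.12) and GPX1 (0.0064), with at least 100 counts of each type, MYC (-0.0156), with DESeq2's Wald test, GPX1 (0.0144). Leaving out each culture in turn, these named genes lay on both sides: EGR3 from -1.17 to 4.46, KRT18 from -0.0492 to 0.0738, PNLIP from -4.54 to 13.5, EIF4EBP1 from -2.34 to 0.278, EIF4A1 from -1.1 to 0.0849 and GPX1 from -0.0256 to 0.145. A prior count of 0.5 moved the mean of the per-culture ratios by over 1 SD for RYK (-6.43), SDHD (-1.75), PPP1R15A (-2.32), TSC1 (-4.16). Over the genes of the naming rule and the alternatives, 1067 values kept direction and call, 115 lost the call, 48 gained it and 27 changed side. With the block, of the genes the text names, the calls of EIF2D, MRPL22, H2AFY, ENO2, MUC1, CD68, SMAD4, OAZ1, GAPDH, TFRC, EIF1AX, MT-ND4L, UCP2, NDUFS1, CDK1 and AKNA were lost. Per coding length, the examples EIF1AX (1.21), EIF4EBP2 (0.979), MT-ND1 (-0.995), MT-ND4 (-0.92), MT-ND4L (-0.274), MT-CO1 (-0.816), KRT8 (-0.644), KRT19 (-0.396), SRSF7 (-0.373), SRSF3 (1.66) and SRSF1 (0.298) also changed side. On simulated counts, 4-fold differences were recovered in 17.3% of genes made higher and 10.1% made lower, and 16-fold ones in 75% and 83.3% of those that passed the count minimum, at this depth and replicate spread; neither was varied.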
